A study of Mus musculus with 43 samples.

Results

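Wild-type mouse back skin was compared after 2 regimens of UVB, the part of ultraviolet light behind most sunburn. The 10 libraries compared, of 43 in the series, were the 5 labelled WT with chronic UVB and the 5 labelled WT with acute UVB. Chronic UVB was 100 mJ/cm2 daily for 5 days (500 mJ/cm2 in total) and acute UVB was 300 mJ/cm2 given once, and skin was taken 24 hours after the last exposure. Total dose, number of exposures and time since the first exposure therefore cannot be told apart. All mice were females aged 10 to 13 weeks. Of the other 33 libraries, 4 came from unexposed WT skin and set the baseline below, and 10 chronic and 10 acute libraries came from NZM (the lupus-prone NZM2328 line of the series title) and iNZM, a name that the labels do not define. The remaining 9, unexposed NZM and iNZM skin, entered only the shared estimate of the spread. The strain behind WT is likewise not defined in them, and no transgene or agent other than UVB is named for any WT group.

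Every gene that reached a value of 10 in 4 or more of the 43 libraries was compared, which kept 19170 of 23256 genes (82.4%). Of these, 496 passed only through the WT libraries after chronic or acute UVB, and 80 had no read in any of the 10 libraries. Values are normalised read counts, the reads of a gene divided by a size factor of its library. Differences are chronic minus acute UVB on the log2(value + 1) scale with their standard error (SE), and a gene was called when its limma adjusted p was below 0.05. The labels do not say that each library came from a separate mouse, so p-values measure the spread between these libraries. Depth was 18.49 to 23.79 M reads after chronic UVB, 18.8 to 27.59 M after acute UVB and 24.44 to 29.51 M without UVB. Per-library values are given for libraries 27, 28, 29, 58 and 59 after chronic UVB, then 13, 15, 50, 51 and 52 after acute UVB, then 41, 43, 44 and 45 without UVB.

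UVB is absorbed mostly in the epidermis, where it damages DNA, activates p53 in keratinocytes and starts a sunburn reaction of cytokines, chemokines and incoming neutrophils. Keratinocytes then divide, and the epidermis thickens. As they move outward, keratinocytes switch on keratins 1 and 10 above the basal layer, make profilaggrin and loricrin in the granular layer, and finally build the cornified envelope. In this envelope, small proline-rich and late cornified envelope proteins are crosslinked beneath a layer of ceramides.

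The comparison asked how skin exposed on 5 days differed from skin exposed once. After chronic UVB, genes of the granular layer, the cornified envelope, stefin A inhibitors and cell division were higher, and neutrophil chemokine genes, Il6, the EGF receptor ligand gene Epgn and genes of monocytes and skeletal muscle were lower. In all, 7153 genes were called (37.3%), of which 3762 were higher (19.6%) and 3391 lower (17.7%), with a median log2 difference over all genes of 0.03. The difference was at least 4 on the log2 scale for 119 genes called higher and for 36 called lower. The groups did not overlap for 4958 genes (25.9%).

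**Figure D1:**
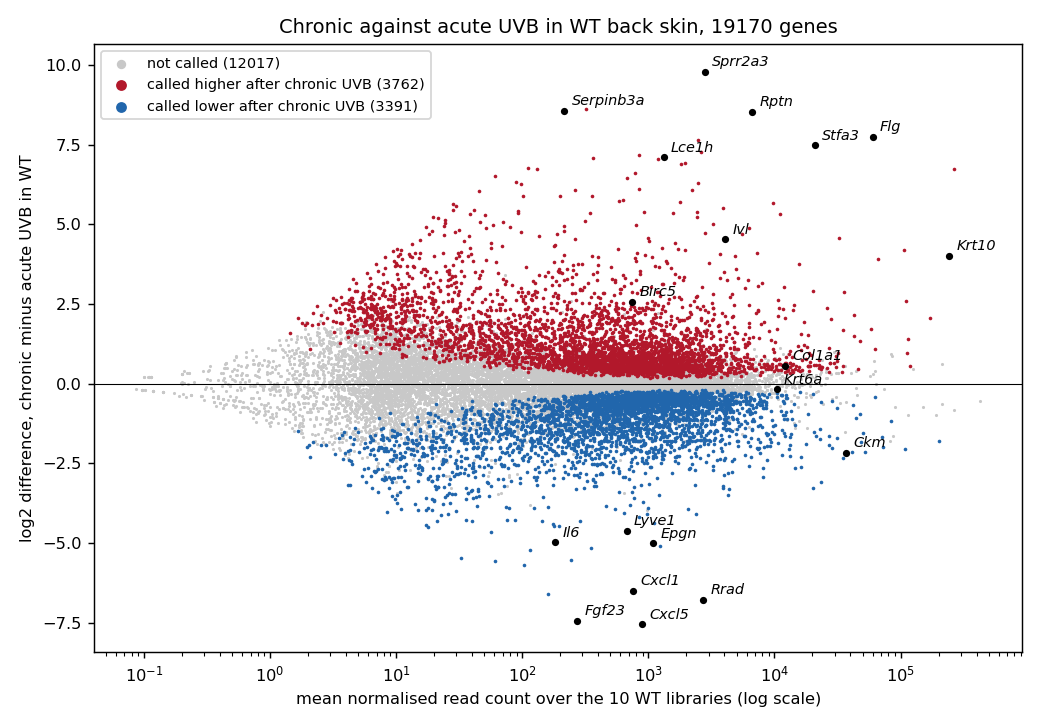
Log2 difference of each gene (vertical axis, chronic minus acute UVB in WT) against its mean normalised read count over the 10 libraries (horizontal axis, log scale; the 80 genes with no read are not drawn). Red and blue points are the 3762 genes called higher and the 3391 called lower after chronic UVB, and the largest named differences run from 9.79 for Sprr2a3 to -7.55 for Cxcl5.

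Sprr2a3, a small proline-rich envelope gene, showed the largest difference among genes called higher by the rule for named genes. It had 3693, 9048, 8460.0, 2857 and 3844 normalised reads after chronic UVB, against 9.7, 73.4, 0, 6.07 and 0 after acute UVB and 162, 254, 40.3 and 304 without UVB. Its difference was 9.79 ± 0.92 (SE, limma adjusted p = 3.50e-10). No acute library came near the lowest chronic one. Rptn, which encodes repetin of the epidermal matrix (chromosome 3, 93393699 to 93399442, plus strand), had 7884, 26573, 12995, 13382 and 5359 after chronic UVB, against 42.7, 28.2, 9.35, 52 and 39.7 after acute UVB and 15.1, 46.5, 65.9 and 207 without. Its chronic libraries stood far above both other groups, and its difference was 8.53 ± 0.79 (adjusted p = 2.45e-10).

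Among the protease inhibitors, Serpinb3a had 425, 820.1, 454, 290.4 and 167 normalised reads after chronic UVB and no read in any acute library. With 3 reads over the acute group taken as the limit that a count of 0 allows, its chronic mean was at least 661-fold higher. Serpinb12, of the same inhibitor family, averaged 4927 ± 2383 after chronic UVB and 24 ± 17.3 after acute UVB (SD, n = 5 each). Fetub, the gene of the protease inhibitor fetuin-B, averaged 1677 ± 836 after chronic UVB and 12 ± 9.03 after acute UVB. Both groups of values lay apart for each gene, with adjusted p of 1.70e-09 and 9.96e-11. The metabolic genes Akr1d1, a steroid reductase, and Tdh, a threonine dehydrogenase, were near 0 after acute UVB and differed by 8.61 ± 0.75 and 7.07 ± 0.77. The other genes among the 12 with the largest increases were Flg, Stfa3 and Lce1h, described below, and 2 transcripts with clone names. Those were RP24-83D14.6, with a difference of 7.27 ± 0.76, and RP23-127E21.1, with 7.04 ± 0.79.

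Profilaggrin, the precursor that keratinocytes break down into filaggrin, is made in the granular layer. Its gene Flg (chromosome 3, 93273523 to 93293686, plus strand) had 175361, 44137, 147302, 151858 and 78786 normalised reads after chronic UVB, against 988, 1153, 187, 389 and 348 after acute UVB and 1623, 1502, 840.5 and 697 without UVB. Its chronic mean was 195-fold its acute mean, and the log2 difference was 7.75 ± 0.75 (adjusted p = 5.55e-10). Library 28 was the lowest of the chronic libraries and still lay above every acute and unexposed one. The 250 bases before the RefSeq start of Flg, Rptn and Krt10 are shown because these granular and suprabasal genes all rose, with capitals marking each TGANTCA (searched on both strands, the core of AP-1 sites) and each TATAAA (the gene's strand only).
Flg: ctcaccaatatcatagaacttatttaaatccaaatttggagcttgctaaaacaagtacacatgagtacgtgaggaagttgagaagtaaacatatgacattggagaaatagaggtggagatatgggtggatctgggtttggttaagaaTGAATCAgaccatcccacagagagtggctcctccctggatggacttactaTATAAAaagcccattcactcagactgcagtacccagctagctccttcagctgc
Rptn: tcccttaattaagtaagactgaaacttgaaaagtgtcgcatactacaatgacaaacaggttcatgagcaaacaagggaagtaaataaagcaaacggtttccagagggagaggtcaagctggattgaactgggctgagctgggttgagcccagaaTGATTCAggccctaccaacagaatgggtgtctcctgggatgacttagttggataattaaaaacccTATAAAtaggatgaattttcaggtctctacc
Krt10: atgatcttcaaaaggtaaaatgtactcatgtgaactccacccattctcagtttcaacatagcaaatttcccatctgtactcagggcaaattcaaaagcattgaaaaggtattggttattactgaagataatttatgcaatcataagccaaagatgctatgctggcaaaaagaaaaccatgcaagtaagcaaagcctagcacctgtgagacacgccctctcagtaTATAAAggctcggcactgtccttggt
The windows are RefSeq promoters on build GRCm38.p6, chr3:93273296-93273545 (plus strand), chr3:93393449-93393698 (plus strand) and chr11:99389365-99389614 (minus strand). TGANTCA began 103 bases before the start of Flg and 96 before that of Rptn, and was not found in the Krt10 window. TATAAA began 53, 31 and 26 bases before the starts of Flg, Rptn and Krt10. Of all 32851 promoters of this length, 6.75% held TGANTCA and 7.59% held TATAAA, and of the 14875 of tested genes, 5.24% and 4.84%. Among promoters of genes called higher by a log2 difference of at least 2, the shares were 9.31% and 8.91%, and among those called lower by as much, 9.88% and 13.1%. The shares with TGANTCA thus lay close to each other on both sides of the comparison.

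Of 24 genes of the granular layer and cornified envelope, 23 were called higher after chronic than after acute UVB and 1 lower, where 19.6% and 17.7% of all genes were, with a median log2 difference of 3.46. Krt10, the suprabasal keratin 10, had 467799, 667350.0, 701879, 338501 and 127523 after chronic UVB, against 42992, 23957, 14969.9, 21441 and 25946 after acute UVB and 185559, 229347, 148639 and 121660.1 without. Lor, which encodes the envelope protein loricrin, had 316296, 254163, 241805, 146322 and 48744 after chronic UVB, against 27422, 7329, 2884, 8028 and 15109 after acute UVB and 146721, 183987, 108740.3 and 85968 without. For both genes the acute libraries were the low group, and chronic and unexposed libraries overlapped. Ivl (involucrin, an envelope scaffold) rose by 4.53 ± 0.36 with an adjusted p of 1.30e-11, Casp14 (the protease caspase-14 of cornification) by 5.34 ± 0.46, and Asprv1 (a protease that processes profilaggrin) by 4.56 ± 0.44. In each of these 3 genes library 59 was the lowest after chronic UVB, at 2726, 7446 and 19203, and it lay above all acute libraries. Krt77, a type II keratin gene named after its values were seen, was the exception, with 4917, 1549, 11098, 279 and 1047 after chronic UVB and 20751, 10578, 8395, 10243 and 12808 after acute UVB. Its difference of -2.65 ± 0.88 had an adjusted p of 0.0171, which became 0.0837 without chronic library 58, and neither edgeR nor DESeq2 called any of the 24 lower.

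Set against unexposed skin, the 2 regimens gave opposite counts for these genes. After chronic UVB 11 of the 24 were called higher and 2 lower than without UVB, where 18.4% and 16.8% of all genes were. After acute UVB none was higher and 17 were lower, where 10.4% and 11.3% of all genes were. Both comparisons share the 4 unexposed libraries. These shares of all genes are the ones to set beside every count below of list members against unexposed skin. For counts between the 2 regimens, the shares are 19.6% higher and 17.7% lower. The summed values of the 24 genes made up 2.62% to 9.75% of all normalised reads in the chronic libraries, 0.345% to 0.927% in the acute ones and 2.21% to 3.56% in the unexposed ones. Fewer granular cells and less RNA per cell cannot be told apart in such bulk samples, here and for every cell type below.

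The late cornified envelope genes split by group. All 14 genes of group 1 (Lce1) were called higher after chronic than after acute UVB, with differences between 2.03 and 7.10 and a median of 5.45. Lce1h had 4286, 2448, 3040.1, 2337 and 951 normalised reads after chronic UVB, against 54.3, 15.5, 2.34, 16.5 and 26.5 after acute UVB and 338, 298, 134 and 165 without UVB. The order was chronic, none, acute, with no overlap between the 3 groups. Lce1g, Lce1e and Lce1j behaved alike, with differences of 6.88 ± 0.64, 6.09 ± 0.59 and 6.62 ± 0.73. Compared with unexposed skin, all 14 were lower after acute UVB, and after chronic UVB 6 were higher and 1 lower. The one lower was Lce1m, with 12982, 2152, 6327, 3482 and 958 after chronic UVB, 3386, 1294, 164, 603 and 1175 after acute UVB and 31999, 37083, 19073 and 17034 without. Its chronic and acute libraries overlapped, and its difference of 2.03 ± 0.72 (adjusted p = 0.0251) missed the threshold without acute library 50 or 51 or chronic library 27 or 29, with adjusted p up to 0.124.

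Group 3 (Lce3) genes, known as the injury-responsive group, did not follow group 1. Of 6 tested, 1 was called higher and 1 lower after chronic than after acute UVB (16.7% each). Those shares lay near the 19.6% and 17.7% of all genes. All 6 were higher than without UVB after either regimen, where 18.4% of all genes were after chronic UVB and 10.4% after acute UVB. Lce3e had 131, 403, 211, 227 and 141 after chronic UVB and 55.3, 45.2, 2.34, 31.2 and 21.4 after acute UVB, a difference of 3.17 ± 0.90 (adjusted p = 0.00542). Lce3d went the other way, with 32.4, 206, 93.4, 121 and 72.8 after chronic UVB and 472, 564, 189, 385 and 338 after acute UVB, a difference of -2.03 ± 0.63 (adjusted p = 0.0112), although its groups overlapped. Among 15 small proline-rich genes, 6 were called higher and 5 lower. Sprr2a1 had no acute read and up to 102 after chronic UVB, whereas Sprr2f had 8.83, 30.5, 7.97, 11 and 12.8 after chronic UVB against 379, 581, 83, 321 and 313 after acute UVB, and Sprr3 differed by -4.48 ± 0.73. The count of 5 lower genes was 3 without chronic library 27 or without 58. Genes of the Lce1, Sprr2, stefin A and Skint families resemble their neighbours in sequence, and how reads matching several of them were counted is not given in the sources used here.

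**Figure D2:**
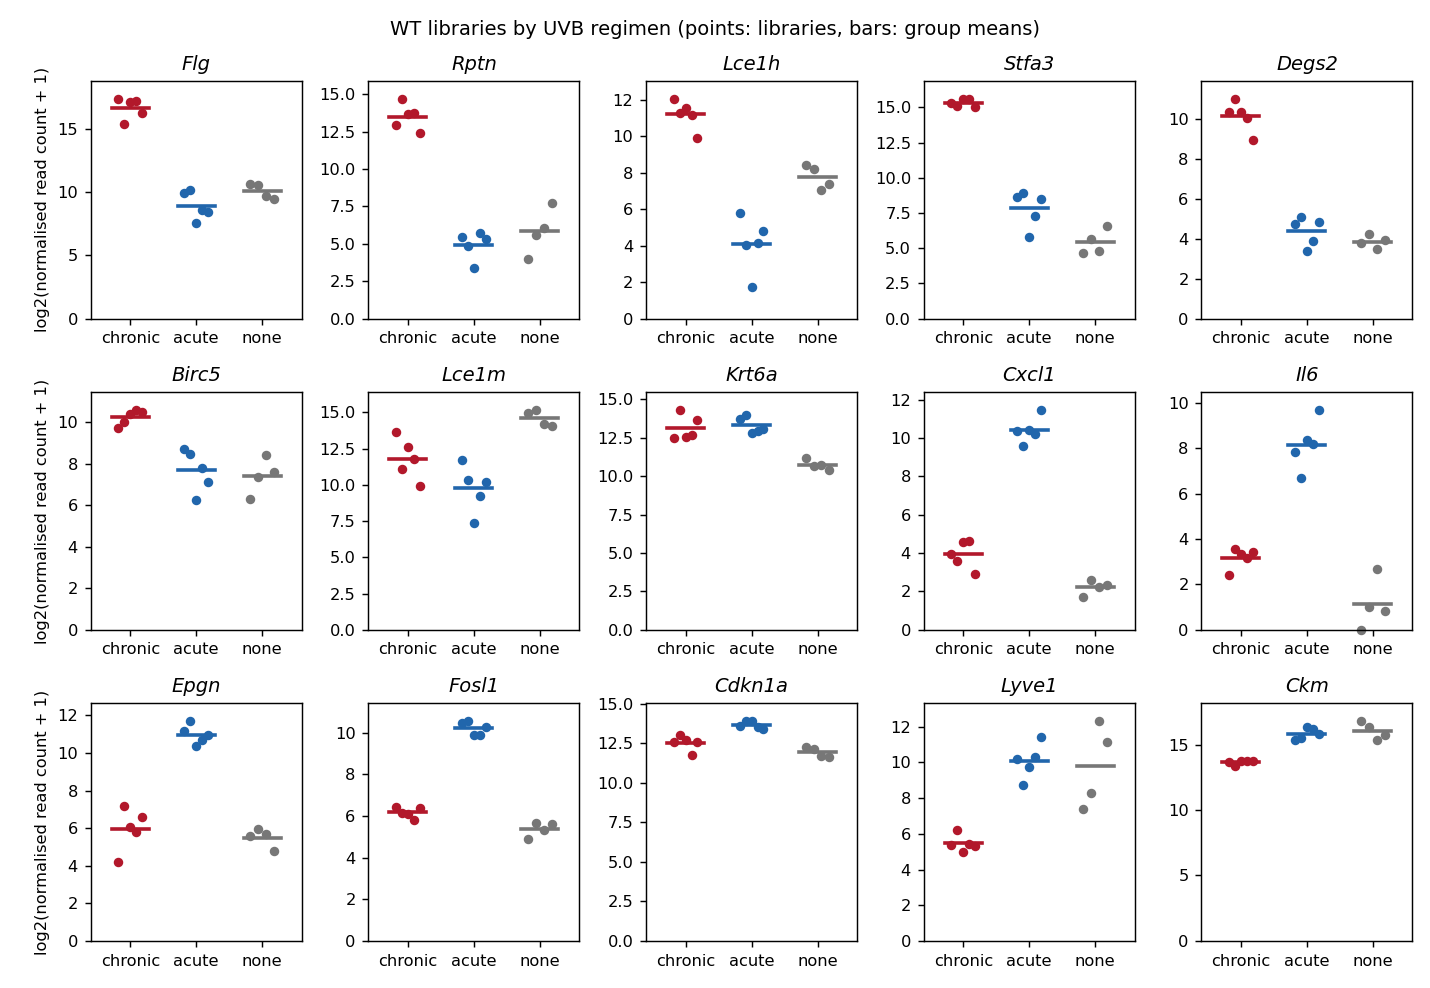
Values of 15 genes as log2(normalised read count + 1) in each WT library after chronic, acute or no UVB (points, with bars at the group means). Flg, Rptn, Stfa3 and Degs2 stand high only in the chronic column, Cxcl1, Il6, Epgn and Fosl1 only in the acute column, Krt6a in both, and Lce1m is highest without UVB.

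Enzymes that make and finish the barrier lipids were called higher for 16 of 19 genes and lower for none, with a median difference of 2.22. Of all genes, 19.6% were higher and 17.7% lower. Degs2, which makes the phytoceramides of the outer epidermis, had 1282, 2061, 1295, 1036 and 497 normalised reads after chronic UVB, against 25.2, 32.5, 9.35, 13.9 and 27.5 after acute UVB and 12.8, 17.8, 10.1 and 14.3 without UVB. Only the chronic libraries stood apart, and the difference was 5.75 ± 0.76 (adjusted p = 2.46e-07). The lipase gene Lipm averaged 2964 ± 971 after chronic UVB, 262 ± 64.2 after acute UVB and 2089 ± 609 without. Here the acute libraries were the low group (difference 3.45 ± 0.27, adjusted p = 1.00e-11). Sdr9c7 and Pnpla1, both needed for the ceramides that are bound to the envelope, differed by 3.98 ± 0.44 and 2.26 ± 0.30. Against unexposed skin, 10 of the 19 were lower after acute UVB (11.3% of all genes were), and 6 were higher after chronic UVB (18.4% of all genes were).

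Of 16 kallikreins, their inhibitors and related proteases, which control the shedding of corneocytes, 11 were called higher and none lower. Klk13 had 2937, 4522, 3333, 3373 and 1263 after chronic UVB, against 101, 100.3, 26.9, 63.3 and 89.6 after acute UVB and 9.29, 17.8, 26.6 and 56.4 without, and its difference was 5.35 ± 0.52 (adjusted p = 6.88e-10). Klk8 and Klk5 rose by 3.79 ± 0.48 and 3.02 ± 0.48, and the transmembrane protease gene Tmprss13 by 1.71 ± 0.20. All 4 were lowest in library 59 among the chronic libraries. Of 6 epidermal connexins, the channel proteins of gap junctions, 5 were called higher, including Gjb6 (connexin 30) with 3.33 ± 0.43 and Gjb5 with 2.39 ± 0.36. Gjb6 averaged 1191 ± 354 after chronic UVB, 118 ± 39.5 after acute UVB and 37.9 ± 25 without UVB.

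Among 14 genes of basal keratinocytes the balance was even, with 2 higher and 3 lower and a median difference of 0.03. Those shares, 14.3% and 21.4%, lay near the 19.6% and 17.7% of all genes. The basal keratins Krt14 and Krt5 rose by 2.05 ± 0.33 and 1.40 ± 0.24. Itgb1 (the integrin beta 1 that anchors basal cells) differed by -0.90 ± 0.15, Plec (the linker plectin) by -1.09 ± 0.22, and Itga3, named after its values were seen, by -1.03 ± 0.24, and these 3 were the genes called lower. The stress keratins Krt6a, Krt6b, Krt16 and Krt17 appear in wounds and thickened epidermis. Of these and Krt84, a keratin gene listed with them (5 genes in all), 2 were higher after chronic than after acute UVB. Of the 5, 3 were higher than without UVB after either regimen. Krt6b had 12432, 72975, 16619, 15019 and 27486 after chronic UVB, against 2899.5, 2010.0, 472, 1239 and 3987 after acute UVB and 82.4, 67.3, 74.2 and 485 without, a difference of 3.76 ± 0.90 (adjusted p = 0.00116). Krt16 differed by 2.37 ± 0.71 (adjusted p = 0.00843). Krt6a had 5829.7, 20414, 5901, 6429.7 and 12818 after chronic UVB and 13270.2, 16037, 7127, 7779.6 and 8766 after acute UVB, with overlapping groups and a difference of -0.17 ± 0.42 (adjusted p = 0.793). Krt6a had 2268, 1618, 1720.3 and 1325 without UVB, lower than after either regimen, with adjusted p of 8.89e-05 after chronic UVB and 4.17e-05 after acute UVB. Krt5, Krt14, Krt10 and Krt1, the 4 keratinocyte markers fixed for the tissue check, were all called higher after chronic UVB.

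Stefin A genes encode small inhibitors of cysteine proteases. Stfa3 had 40591, 34653, 49274, 50217 and 33817 normalised reads after chronic UVB, against 405, 492, 54.9, 158 and 351 after acute UVB and 24.4, 48.5, 26.6 and 94.6 without UVB. The chronic libraries lay close together and far above all others, and the difference was 7.49 ± 0.69 (adjusted p = 2.15e-10). Stfa1, Stfa2 and Csta1 rose by 6.34 ± 0.72, 5.73 ± 0.72 and 4.73 ± 0.41. Stfa2l1, named after its values were seen, was called lower, with a difference of -2.27 ± 0.77 (adjusted p = 0.0185), a call lost without acute library 52 or chronic library 29, with adjusted p up to 0.0769. Antimicrobial and alarm genes were split, with 5 of 17 higher and 5 lower. Defb1, a beta-defensin made by resting epithelia, averaged 924 ± 158 after chronic UVB, 101 ± 47.4 after acute UVB and 545 ± 225 without, so acute UVB was the low group. The acute-phase genes Saa2 and Saa3 differed by -4.31 ± 0.74 and -3.94 ± 0.87, and Lcn2, which encodes the iron-scavenging lipocalin 2, by -3.49 ± 0.68. S100a8, a calprotectin subunit of neutrophils and stressed keratinocytes, had 175, 469, 150.3, 310.4 and 886 after chronic UVB and 597, 539.6, 534, 593 and 1219 after acute UVB, and did not pass (difference -1.04 ± 0.77, adjusted p = 0.305).

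Cell division genes were called higher for 31 of 35 and lower for none, with a median difference of 1.92. Birc5, the gene of survivin in the chromosomal passenger complex, had 849, 1043, 1345, 1549.8 and 1445 normalised reads after chronic UVB, against 424, 359, 76, 224 and 138 after acute UVB and 76.6, 163, 344 and 193 without UVB. The lowest chronic library lay above every other, and the difference was 2.57 ± 0.38 (adjusted p = 1.95e-06). The mitotic genes Cdc20, Nusap1 and Ccnb2 rose by 2.19 ± 0.36, 2.38 ± 0.40 and 2.84 ± 0.48, and the proliferation marker Mki67 by 2.33 ± 0.48 (adjusted p = 2.63e-04). Against unexposed skin, 29 of the 35 were higher after chronic UVB and 2 after acute UVB. With the muscle score described below as a covariate 15 of the 35 were called higher, and among the libraries numbered below 46 alone 9 were.

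Targets of p53, the damage-activated transcription factor, leaned the other way, with 16 of 30 called lower after chronic than after acute UVB and 4 higher. Cdkn1a, which encodes the cell-cycle inhibitor p21, had 6148, 8294, 6521, 3509 and 5993 after chronic UVB, against 12143, 15375, 15195, 11830.2 and 10897 after acute UVB and 4898, 4569, 3273 and 3216 without, a difference of -1.14 ± 0.22 (adjusted p = 7.66e-05). The acute libraries were highest without overlap. Aen, an apoptosis nuclease gene, Plk2, a stress kinase gene, Tnfrsf10b, a death receptor gene, and Mdm2, the negative regulator of p53, differed by -1.51 ± 0.16, -1.68 ± 0.24, -1.84 ± 0.26 and -0.92 ± 0.13. Plk2 had 914, 1135, 1033, 1182 and 821 after chronic UVB, against 3212, 3298, 3306, 2945 and 3376 after acute UVB, with both groups even and apart.

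Of 18 nucleotide excision repair genes, whose proteins remove UVB photoproducts, 4 were higher and 3 lower. Both counts lay near the shares of all genes, 19.6% higher and 17.7% lower. Without chronic library 27 only 1 repair gene was lower. Xpa (damage verification) rose by 0.92 ± 0.13, Ddb2 (damage recognition) by 1.50 ± 0.33 and Lig1 (a DNA ligase) by 1.26 ± 0.29. Xpc (damage recognition) had 775, 649, 785, 728 and 701 after chronic UVB, against 676, 727, 825, 732 and 712 after acute UVB and 1059, 1009.8, 967 and 1061 without, with a difference of -0.01 ± 0.10 (adjusted p = 0.938). Every chronic and acute library lay below every unexposed one. Of 18 circadian clock genes, 6 were higher and 1 lower, among them Hlf with 1.25 ± 0.22, Arntl with 0.94 ± 0.20, Rora with 1.39 ± 0.30 and Cry1 with -0.68 ± 0.15. Per1 did not pass (-0.64 ± 0.27, adjusted p = 0.0625), and the labels do not give the hour of sampling.

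Cxcl5, a chemokine that attracts neutrophils, showed the largest difference among genes called lower by the rule for named genes. It had 2.94, 9.8, 4.55, 5.99 and 17.1 normalised reads after chronic UVB, against 2139.7, 582, 1735, 922 and 3495 after acute UVB and 0, 0, 0.916 and 0.795 without UVB. Its difference was -7.55 ± 1.12 (adjusted p = 1.89e-06). Cxcl1, which acts on the same receptor, had 14.7, 10.9, 22.8, 24 and 6.42 after chronic UVB, 1336, 759.9, 1355, 1208 and 2851 after acute UVB and 2.32, 4.95, 3.66 and 3.97 without, a difference of -6.49 ± 0.71 (adjusted p = 5.77e-09). In both genes every acute library lay far above every chronic one. Csf3, the growth factor of neutrophils, differed by -6.58 ± 0.88, with library 58 alone above 2 reads among the chronic libraries, at 33.9. Of 8 neutrophil-attracting chemokine and growth factor genes, 5 were called lower after chronic UVB and none higher, and edgeR and DESeq2 on the recovered reads each called 4 lower.

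Il6, the gene of interleukin 6 (chromosome 5, 30013114 to 30019981, plus strand), had 4.41, 10.9, 9.11, 7.98 and 9.63 normalised reads after chronic UVB, against 229, 103, 329.5, 287 and 830.3 after acute UVB and 0, 0.989, 5.49 and 0.795 without, and its difference was -4.97 ± 0.80 (adjusted p = 6.83e-06). Of 16 genes of the interleukin 6 and 20 families, 9 were lower and 3 higher. Socs3, which is induced by these cytokines and limits their signal, differed by -2.57 ± 0.39, the receptor gene Osmr by -1.10 ± 0.23 and the cytokine gene Il24 by -4.08 ± 0.89. The receptor gene Il20ra was among those higher (2.89 ± 0.56), with 224, 155, 354, 148 and 88.8 after chronic UVB, 72.8, 18.4, 23.4, 25.1 and 7.13 after acute UVB and 819, 790.3, 670.2 and 662 without. For Il20ra every unexposed library lay above every chronic one, and every chronic one above every acute one. Of 18 CC chemokine genes, 8 were lower and 2 higher, and DESeq2 called 4 higher and edgeR 1. Ccl9, a chemokine of the mouse that attracts myeloid cells, averaged 259 ± 138 after chronic UVB and 4498 ± 2767 after acute UVB, and had 492, 683, 5029 and 3459 without. Of its unexposed libraries, 41 and 43 lay just above the chronic ones and 44 and 45 within the acute range. Ccl7, Ccl2 and Ccl6 differed by -3.79 ± 0.77, -2.84 ± 0.66 and -3.49 ± 0.83.

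The 250 bases before the RefSeq start of Cxcl1, Il6 and Ccl9 are shown as those of strongly lower cytokine genes, with capitals for the NF-kB consensus and TGANTCA (both strands) and for TATAAA.
Cxcl1: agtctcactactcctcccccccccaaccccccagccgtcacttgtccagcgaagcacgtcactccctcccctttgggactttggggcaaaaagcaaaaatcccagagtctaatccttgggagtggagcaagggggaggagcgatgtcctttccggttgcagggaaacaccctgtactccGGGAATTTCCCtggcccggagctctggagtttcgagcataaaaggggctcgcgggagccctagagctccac
Il6: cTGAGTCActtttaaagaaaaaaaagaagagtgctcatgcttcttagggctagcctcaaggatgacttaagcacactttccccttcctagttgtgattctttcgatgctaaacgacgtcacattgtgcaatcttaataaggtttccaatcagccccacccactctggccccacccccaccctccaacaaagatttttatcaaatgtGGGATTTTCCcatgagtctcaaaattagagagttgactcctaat
Ccl9: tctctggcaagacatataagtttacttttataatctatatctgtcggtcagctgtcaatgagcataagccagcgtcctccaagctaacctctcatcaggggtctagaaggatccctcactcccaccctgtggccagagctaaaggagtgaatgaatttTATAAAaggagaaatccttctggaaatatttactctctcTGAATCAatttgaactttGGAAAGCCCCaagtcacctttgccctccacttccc
These RefSeq windows lie on GRCm38.p6 at chr5:90890995-90891244 (plus strand), chr5:30012864-30013113 (plus strand) and chr11:83578637-83578886 (minus strand). The NF-kB consensus began 71 and, overlapping it, 70 bases before the start of Cxcl1, 44 before that of Il6 and 35 before that of Ccl9. TGANTCA began 249 bases before the start of Il6 and 53 before that of Ccl9. The NF-kB consensus was held by 3.9% of all promoters of this length, by 4.74% of those of tested genes, by 5.06% of those of genes called higher by a log2 difference of at least 2 and by 4.2% of those called lower by as much.

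The interleukin 1 family was split. Il18, Il1f8 (interleukin 36 beta) and Il1f9 (interleukin 36 gamma), cytokines that keratinocytes make, rose by 4.04 ± 0.45, 4.56 ± 0.62 and 3.02 ± 0.66. Il1f8 had 2231, 2943, 1839, 1831 and 711 after chronic UVB, against 82.5, 107, 40.9, 59.8 and 91.7 after acute UVB and 91.7, 59.3, 42.1 and 56.4 without. Il1r1, the receptor gene, differed by -1.98 ± 0.33. Il1b had 194, 129.6, 60.3, 448 and 98.5 after chronic UVB and 647, 328, 1334, 694 and 1507 after acute UVB, with overlapping groups. Its difference of -2.41 ± 0.86 (adjusted p = 0.0247) missed the threshold without acute library 50 or 52 or chronic library 29 or 59, with adjusted p up to 0.0732. Of the 16 genes, 7 were higher and 6 lower, and the lower count was 3 without acute library 50, 2 without acute library 52 and 3 without chronic library 59.

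Of 16 AP-1 and immediate-early genes 9 were lower and 2 higher. Fosl1, an AP-1 subunit gene, had 85.3, 70.8, 67.2, 54.9 and 82.4 after chronic UVB, against 1413, 1517, 949, 945 and 1242 after acute UVB and 29, 50.4, 39.4 and 48.5 without, a difference of -4.04 ± 0.50 (adjusted p = 7.18e-08). Atf3 and Myc differed by -2.29 ± 0.45 and -0.75 ± 0.15, and Egr3 rose by 0.97 ± 0.20. Of 14 TNF and NF-kB feedback genes, 5 were lower and none higher, including Tnfaip2 (-2.67 ± 0.51), the adhesion receptor gene Icam1 (-1.11 ± 0.25) and Bcl3 (-1.77 ± 0.46), and the count was 3 without acute library 52.

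The EGF receptor system was split, with 5 of 12 genes higher and 5 lower. The ligand gene Epgn (epigen) had 17.7, 145, 64.9, 54.9 and 96.3 normalised reads after chronic UVB, against 2269, 3348, 1322, 1636 and 1964 after acute UVB and 46.4, 60.3, 51.3 and 26.2 without, a difference of -5.00 ± 0.54 (adjusted p = 5.26e-09). Hbegf, another ligand gene, differed by -2.91 ± 0.42, while the receptor genes Erbb3 and Erbb2 rose by 1.44 ± 0.15 and 1.00 ± 0.15. In prostaglandin metabolism, 5 of 17 genes were higher and 6 lower. Ptgs2, the inducible cyclooxygenase, had 165, 67.5, 106, 296 and 62.1 after chronic UVB and 562, 766, 712, 694 and 669 after acute UVB (-2.52 ± 0.52, adjusted p = 2.41e-04). Hpgd, which inactivates prostaglandins, and the phospholipase genes Pla2g2f and Pla2g4a rose by 2.54 ± 0.27, 2.80 ± 0.37 and 1.29 ± 0.18. Of 18 targets of NRF2, the oxidative stress factor, 4 were higher, near the 19.6% of all genes. They included the glutathione transferases Gsta1 (3.61 ± 0.62) and Gsta2 (2.90 ± 0.41). Another 5 of the 18 were lower, where 17.7% of all genes were, among them Txnrd1 (-1.34 ± 0.26) and Nqo1 (-0.92 ± 0.25).

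Other genes with large decreases had no place in the lists. Fgf23, which encodes a phosphate-regulating hormone made mainly by bone, had 0, 3.27, 0, 3.99 and 0 after chronic UVB, against 393, 52.3, 293, 321 and 1661 after acute UVB and 0, 0, 0 and 1.59 without (-7.43 ± 1.05, adjusted p = 8.84e-07). Rrad, a small GTPase gene, averaged 47.5 ± 19.8 after chronic UVB, 5421 ± 2671 after acute UVB and 94.5 ± 42.7 without (-6.77 ± 0.65, adjusted p = 4.90e-10). Between chronic and no UVB neither gene passed, with adjusted p of 0.74 and 0.272. Ptx3, a pattern-recognition pentraxin, and Nppb, a natriuretic peptide gene, differed by -5.09 ± 0.84 and -5.23 ± 0.80. The 12 largest decreases also held 4 transcripts with clone names, RP24-360E22.3 (-5.67 ± 0.83), RP24-291M22.2 (-5.56 ± 0.79), RP24-210L3.2 (-5.52 ± 0.63) and RP23-143D12.2 (-5.16 ± 0.72).

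**Figure D3:**
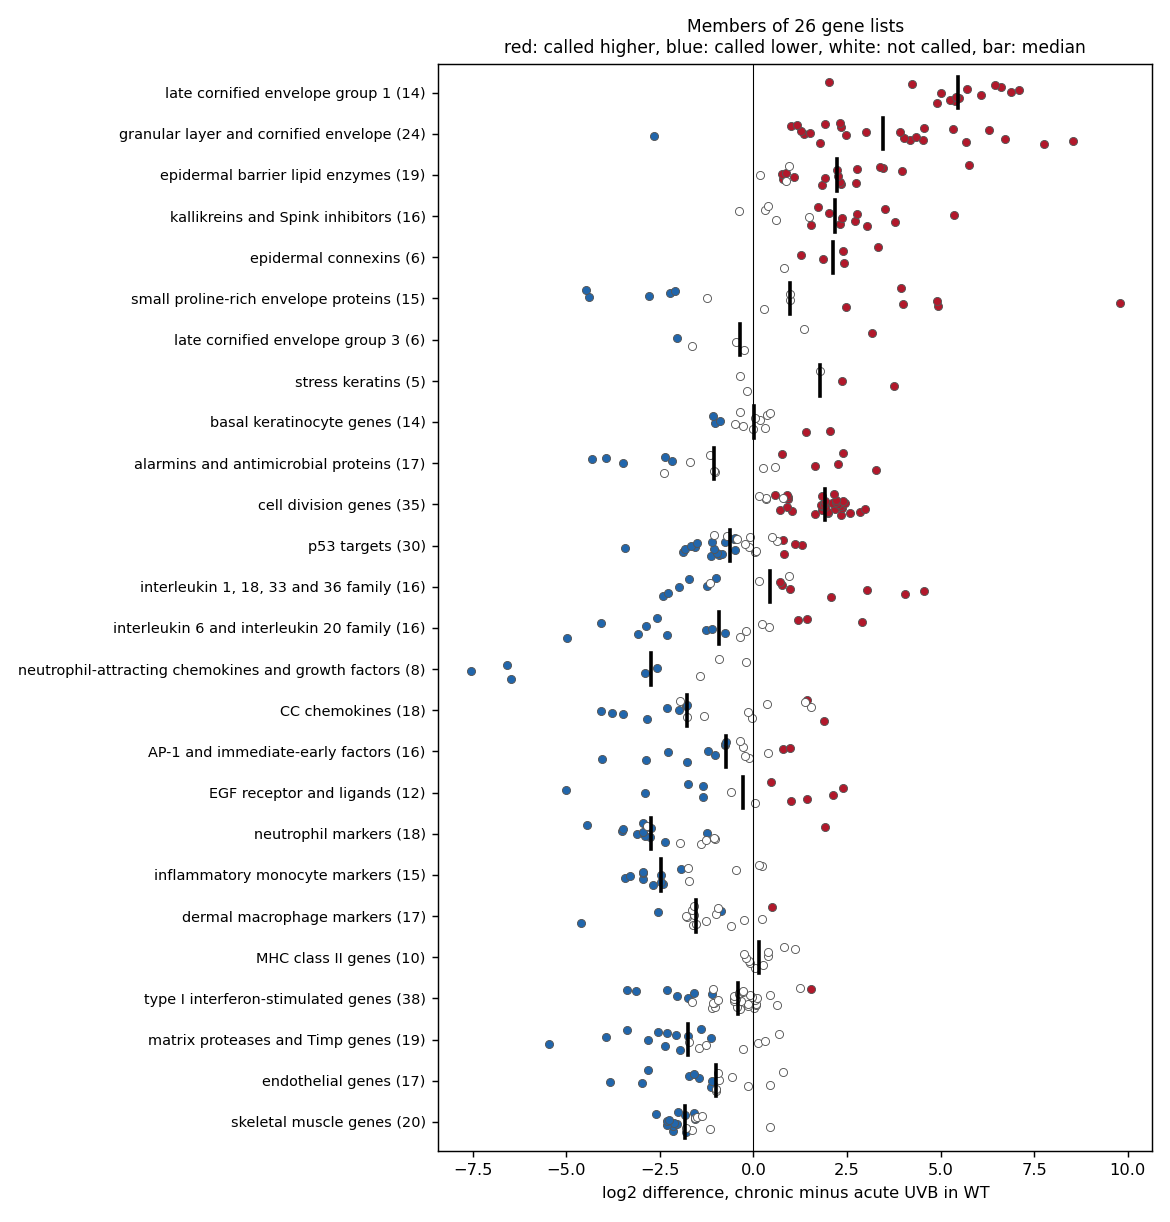
Log2 difference, chronic minus acute UVB in WT, of each tested member of 26 gene lists (number of members in parentheses). Points are genes, red if called higher, blue if called lower and white if not called, and black bars mark list medians, which run from 5.45 for the late cornified envelope group 1 to -2.75 for neutrophil markers.

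Of 18 neutrophil markers 11 were lower after chronic than after acute UVB and 1 was higher, with a median of -2.75. Mrgpra2b, a receptor gene used as a neutrophil marker in the mouse, had 0, 1.09, 1.14, 0 and 0 after chronic UVB, against 17.5, 11.3, 65.4, 26.9 and 49.9 after acute UVB and no read without UVB (-4.44 ± 0.56, adjusted p = 1.16e-07). Fpr2, a chemotactic receptor gene, and Hdc, which makes histamine and also marks mast cells, differed by -3.51 ± 0.94 and -2.74 ± 0.61. The gene called higher was Padi4, named after its values were seen (1.92 ± 0.73, adjusted p = 0.037), whose call was lost without 7 of the 10 libraries in turn, with adjusted p up to 0.0845. Without acute library 52, 5 of the 18 were lower. Ly6g, a defining marker, was at 0 in every chronic and unexposed library and at most 8.18 after acute UVB, too low to be tested. Cxcr2 and Csf3r, also fixed as neutrophil markers for the tissue check, did not pass, and their groups overlapped. They differed by -1.40 and -1.97 on the log2 scale (limma adjusted p = 0.187 and 0.052). The summed markers made up 0.00716% to 0.0166% of reads after chronic UVB, 0.0216% to 0.0703% after acute UVB and 0.00933% to 0.0114% without. By gene, 10 of the 18 were called higher and 2 lower after chronic UVB than without UVB.

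Of 15 inflammatory monocyte markers, 10 were lower and none higher. Ly6c2 had 39.7, 31.6, 22.8, 37.9 and 22.5 after chronic UVB, against 108, 414, 136, 201 and 246 after acute UVB and 20.9, 42.5, 68.7 and 124 without. Chil3 (a chitinase-like lectin), F10 (coagulation factor X) and Plac8 differed by -3.42 ± 0.35, -3.31 ± 0.79 and -2.94 ± 0.84. Lyve1, a hyaluronan receptor of lymphatic vessels and of a set of macrophages, had 39.7, 73, 30.7, 42.9 and 39.6 after chronic UVB, against 1169, 427, 846, 1285 and 2754 after acute UVB and 169, 317, 5137 and 2284 without, a difference of -4.61 ± 0.80 (adjusted p = 2.10e-05). The unexposed libraries of Lyve1 fell into 2 low and 2 high values, all above the chronic libraries. In all, 3 of 17 macrophage markers were lower, near the 17.7% of all genes, and 1 was higher. The lower count was 7 without acute library 15, 6 without chronic library 28 and 1 without acute library 51 or 52 or chronic library 27 or 29, and it was 6 by edgeR and 9 by DESeq2.

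None of 10 MHC class II genes, which present antigen, was called between the regimens by limma, edgeR or DESeq2, and 1 had an unadjusted limma p below 0.05. H2-Ab1 had 3371, 3929, 3983, 3187 and 2199.7 after chronic UVB, against 3127, 2151, 1219, 2902 and 6564 after acute UVB and 8992, 10248, 8873 and 12934 without. In H2-Ab1 every chronic and acute library lay below every unexposed one, and compared with unexposed skin 6 of the 10 were lower after chronic UVB and 7 after acute UVB. Cd207, the langerin gene of Langerhans cells, followed the same order, with 337, 163, 290.3, 191 and 91 after chronic UVB, 235, 184, 43.2, 167 and 179 after acute UVB and 1142, 1068, 775 and 802 without, and differed by 0.46 ± 0.50 between the regimens (adjusted p = 0.497). Of 17 Langerhans and dendritic cell markers 1 was higher and 1 lower, and DESeq2 called 4 each way. The lower gene was Cd209a (-2.45 ± 0.81, adjusted p = 0.0169, or 0.0734 without acute library 52).

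Of 38 type I interferon-stimulated genes, 1 was higher and 7 (18.4%) lower, near the 17.7% of all genes. Ifit1 had 363, 184, 512, 755 and 168 after chronic UVB and 419, 434, 484, 392 and 450.3 after acute UVB, with overlapping groups and a difference of -0.37 ± 0.61 (adjusted p = 0.676). The genes with the smallest adjusted p among the lower ones were Ifi205 (-3.38 ± 0.64), Ifi204 (-3.14 ± 0.69) and Ifi207 (-2.32 ± 0.69), DNA sensors of 1 gene cluster, and the gene called higher was Phf11d (1.54 ± 0.46). The lower count was 4 without acute library 52 and 4 without chronic library 59. Iigp1, an interferon gamma-induced GTPase gene, differed by -1.96 ± 0.56 (adjusted p = 0.00599).

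Of 20 T cell markers, 3 were higher (15.0%, against 19.6% of all genes) and 1 lower, among them Cd5 (2.87 ± 0.33), Trbc2 (1.71 ± 0.20) and the lower Thy1 (-2.04 ± 0.39), which fibroblasts also express. The defining marker Cd3e had 10.7 to 22 after chronic UVB and 25.4 to 57 after acute UVB and did not pass (means 18.4 and 38.4, limma adjusted p = 0.0965), and Cd3d and Cd3g differed by -0.42 and -0.16 on the log2 scale with adjusted p of 0.682 and 0.824. The summed markers made up 0.00656% to 0.0117% of reads after chronic UVB, 0.00767% to 0.0342% after acute UVB and 0.00747% to 0.0321% without. Trdc, the constant gene of the gamma-delta T cell receptor, had 14.7, 3.27, 12.5, 3.99 and 8.56 after chronic UVB and 7.76, 15.5, 0, 10.4 and 20.4 after acute UVB, against 19.7, 94, 65 and 43.7 without UVB, and differed by 0.06 ± 0.57 between the regimens (adjusted p = 0.953). Of the 18 genes listed with it, the 6 called higher were all Skint genes, butyrophilin-like genes of keratinocytes of which Skint1 is needed by epidermal gamma-delta T cells, and 1 was lower. Skint2, Skint1 and Skint8 rose by 3.49 ± 0.46, 2.98 ± 0.40 and 2.36 ± 0.39. Skint1 averaged 503 ± 84.3 after chronic UVB, 75.3 ± 52.9 after acute UVB and 305 ± 62.6 without.

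Of 19 matrix protease and inhibitor genes, 12 were lower after chronic than after acute UVB and none higher. Mmp10, a stromelysin gene, had 0, 0, 0, 0.998 and 2.14 after chronic UVB, against 77.6, 94.6, 42.1, 63.3 and 46.9 after acute UVB and 0, 0, 0 and 0.795 without (-5.45 ± 0.60, adjusted p = 8.57e-09). The aggrecanase genes Adamts4 and Adamts9 and the inhibitor gene Timp3 differed by -3.94 ± 0.71, -2.06 ± 0.33 and -1.39 ± 0.25. Of 17 endothelial genes 9 were lower, including Ackr1 (a chemokine receptor of venules, -2.82 ± 0.55), Flt1 (a VEGF receptor, -1.71 ± 0.36) and Selp (P-selectin, -3.82 ± 0.83). Of 22 fibroblast and collagen genes, 4 were lower, near the 17.7% of all genes, a count that was 8 without acute library 15, 2 without acute library 51 or chronic library 29 or 59 and 1 without acute library 52. Pdgfra differed by -2.16 ± 0.65, and Col1a1, the main collagen gene, had 11443, 30689, 9917, 12169 and 7171 after chronic UVB and 14523, 2747, 5675, 12945 and 14897 after acute UVB (0.56 ± 0.62, adjusted p = 0.51). Of 16 adipocyte genes 1 was higher and 2 (12.5%) lower, against 17.7% lower of all genes. The lower ones were Lep (leptin) and Slc2a4 (a glucose transporter also found in muscle), with -2.39 ± 0.75 and -1.54 ± 0.48. Adipoq (adiponectin) did not pass (-0.11 ± 0.64, adjusted p = 0.921).

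Among skin appendages, of 30 hair shaft and root sheath genes 1 was called higher, Foxn1 (2.38 ± 0.92, adjusted p = 0.0388), and the call was lost without 8 of the 10 libraries in turn, with adjusted p up to 0.0828, while DESeq2 called 14 of the 30 lower. Hair genes varied widely between libraries, as for Krt71, with 14.7, 12, 6.83, 146 and 12.8 after chronic UVB, 775, 2668, 2712, 6.94 and 9.17 after acute UVB and 5.8, 2.97, 4395 and 4.77 without. None of 11 melanocyte genes was called by limma, edgeR or DESeq2, and 0 had an unadjusted limma p below 0.05, with a median difference of 1.72. Sebaceous gland genes were higher for 3 of 16, near the share of all genes (19.6%), including Acsbg1 (3.06 ± 0.38) and Krt79 (1.73 ± 0.38), and for 8 without chronic library 58, 5 by edgeR and 7 by DESeq2. In cholesterol metabolism, 7 of 20 genes were higher, and 11 were higher without chronic library 58. Stard4, a sterol carrier gene, and Dhcr7, an enzyme of the last steps of synthesis, rose by 1.41 ± 0.19 and 1.10 ± 0.24.

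Skeletal muscle RNA moved with the comparison. Of 20 muscle genes, 13 were lower after chronic than after acute UVB and none higher, and their summed values made up 1.22% to 1.65% of reads in the chronic libraries, 3.95% to 7.35% in the acute ones and 4.59% to 8.75% in the unexposed ones. Ckm, the creatine kinase of muscle, had 13081, 10826, 13545, 14053 and 14039.7 after chronic UVB, against 41923, 45388, 83112, 73954 and 58444 after acute UVB and 114920.1, 84323, 42256 and 54679.9 without. Pvalb, Myl1 and Actn3 differed by -2.61 ± 0.52, -2.32 ± 0.54 and -2.26 ± 0.54. No chronic library reached the lowest acute or unexposed one in the summed share. With a muscle score as a covariate 7504 genes were called, of which 4684 were among the 7153 (65.5%), and 6987 of the 7153 had the same sign. In that fit the counts were 14 of 14 higher for Lce1 genes, 22 of 24 for the granular layer, 18 of 19 for barrier lipids and 15 of 35 for cell division. They were 3 of 8 lower for neutrophil chemokines, 6 of 18 for neutrophil markers, 5 of 15 for monocyte markers and 28 of 30 for hair genes, and 4 of 10 MHC class II genes were higher. Slc2a4 had a difference of 0.02 in it.

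**Figure D4:**
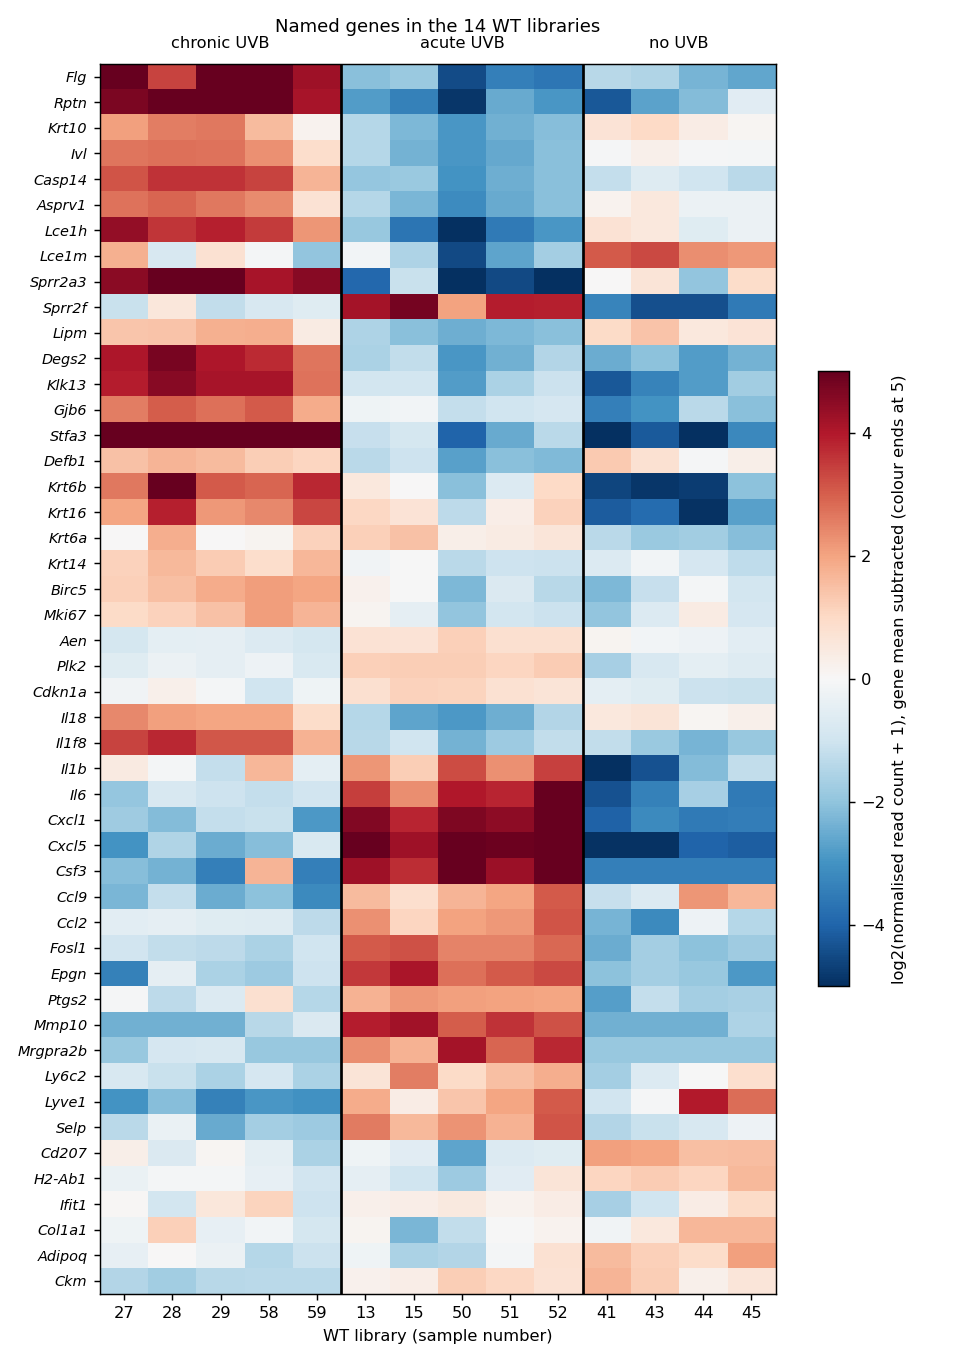
Values of 48 named genes in the 14 WT libraries, as log2(normalised read count + 1) with each gene's mean subtracted (colour, red above and blue below the mean, ending at 5), with libraries grouped as chronic, acute and no UVB. Flg, Rptn, Sprr2a3 and Stfa3 are deep red in the chronic columns, Il6, Cxcl1 and Cxcl5 in the acute columns, and Cd207 is red in all 4 columns without UVB.

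The same comparison was then set against that in NZM and iNZM skin, whose libraries are separate from those of WT. The difference between chronic and acute UVB was more positive in WT than in NZM for 390 genes and more negative for 168 (558 in all, 2.91%). Against iNZM it was more positive for 752 and more negative for 380 (1132 in all, 5.91%, of which 3.92% and 1.98%). In NZM itself 7.55% of genes were called between chronic and acute UVB (3.79% higher and 3.76% lower), and in iNZM 8.26% (3.81% higher and 4.45% lower), each with 5 libraries a group. Without acute library 50 these totals were 289 and 684, and the total against NZM was 343 without acute library 51 and 354 without chronic library 29. Rptn differed by 8.53 ± 0.79 in WT, against 1.49 ± 0.79 in NZM and 1.66 ± 0.79 in iNZM, and the interactions were 7.04 ± 1.11 with NZM (adjusted p = 3.13e-04) and 6.87 ± 1.11 with iNZM (adjusted p = 1.94e-04). Sprr2a3 differed by 9.79 ± 0.92 in WT, against 2.82 ± 0.92 and 0.87 ± 0.92 in NZM and iNZM. Its interactions were 6.97 ± 1.30 (adjusted p = 0.00246) and 8.92 ± 1.30 (adjusted p = 4.98e-05), so that both genes passed against both strains. Serpinb3a gave interactions of 6.28 ± 1.25 with NZM and 5.71 ± 1.25 with iNZM, and Gsdmc, which encodes the pore-forming gasdermin C, 6.25 ± 1.30 and 6.89 ± 1.30. Gsdmc had 2910.4, 6923, 4541, 2886 and 1930.0 in WT after chronic UVB and 107, 43.8, 0, 32.1 and 126 after acute UVB. The transcripts RP23-127E21.1 and RP24-180L12.6 had interactions of 6.93 ± 1.12 and 6.98 ± 1.80 with iNZM.

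Among decreases, Rrad differed by -6.77 ± 0.65 in WT, against -2.63 ± 0.65 in NZM and -2.46 ± 0.65 in iNZM (interaction adjusted p = 0.00854 and 0.0036). Krt90, a keratin gene, gave interactions of -4.49 ± 1.18 with NZM and -3.76 ± 1.18 with iNZM, which were lost without 3 and 6 of the 10 WT libraries in turn, with adjusted p up to 0.0753 and 0.119. Krt24 gave -3.68 ± 0.93 with iNZM, and the GTPase gene Gbp10 -3.35 ± 0.94, a call lost without acute library 50 or 51 (adjusted p up to 0.0644). RP24-291M22.2 and RP24-210L3.2 gave -3.99 ± 1.12 and -3.11 ± 0.90 with NZM, calls that were lost without 8 and 10 of the WT libraries in turn.

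Of the 35 cell division genes, the difference was more positive in WT than in iNZM for 15, where it was for 3.92% of all genes, and than in NZM for 1, where it was for 2.03%. DESeq2 gave 22 and 8 of 35, edgeR 11 and 1, and 32 and 28 had an unadjusted limma p below 0.05. The difference between NZM and iNZM was not tested. Birc5 was the 1 cell division gene that passed against NZM by limma. Birc5 differed by 2.57 ± 0.38 in WT, against 0.26 ± 0.38 in NZM and -0.06 ± 0.38 in iNZM, and its interactions were 2.30 ± 0.54 (adjusted p = 0.0133) and 2.63 ± 0.54 (adjusted p = 0.00275). The median difference of the 35 genes was 1.92 in WT, 0.35 in NZM and -0.04 in iNZM. Of 24 granular layer genes the difference was more positive in WT than in NZM for 8 and than in iNZM for 7, and of 5 stefin A genes for 4 and 4. Granular layer genes also rose in the other strains, with 11 of the 24 called higher and 0 lower in each. Their medians were 1.62 in NZM and 1.50 in iNZM, against 3.46 in WT. Of 14 Lce1 genes, 13 were called higher in NZM and 14 in iNZM, where 3.79% and 3.81% of all genes were. Stfa3 differed by 7.49 ± 0.69 in WT, against 2.60 ± 0.69 and 2.09 ± 0.69 in NZM and iNZM. Of the 8 neutrophil chemokine genes, none passed against either strain by limma or edgeR, none had an unadjusted limma p below 0.05, and DESeq2 called 1 against iNZM. Il6 differed by -4.97 ± 0.80 in WT, -4.67 ± 0.80 in NZM and -4.76 ± 0.80 in iNZM, with interactions of -0.30 ± 1.13 (adjusted p = 0.926) and -0.21 ± 1.13 (adjusted p = 0.942).

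**Figure D5:**
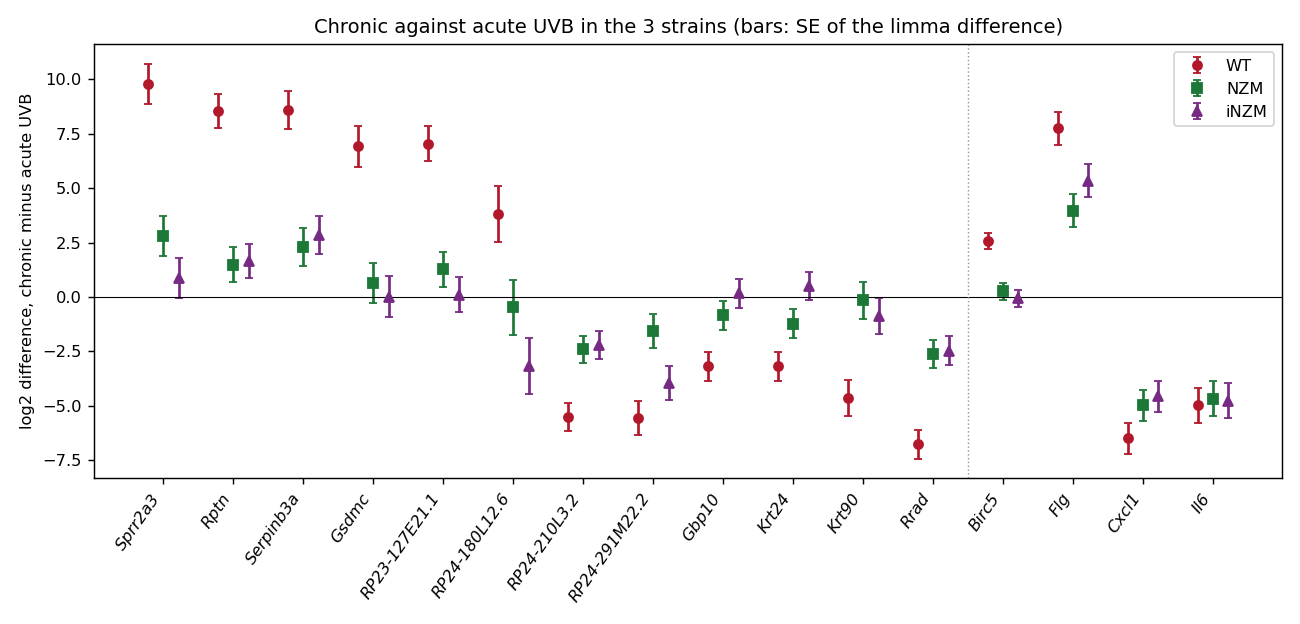
Log2 difference, chronic minus acute UVB, in WT, NZM and iNZM for 16 genes (points, with bars for the SE of the limma difference). Left of the dotted line are the genes named by the interaction rule, among them Sprr2a3 at 9.79 in WT, and right of it Birc5, Flg, Cxcl1 and Il6, of which Il6 lies near -4.97 in all 3 strains.

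The libraries carry sample numbers that fall into 2 runs, below 46 and from 46 up, and both hold libraries of both groups. Among the libraries below 46 (3 chronic and 2 acute) 2939 genes were called, and among those from 46 up (2 chronic and 3 acute) 3780. Of the 7153 genes called over all 10 libraries, 2655 were called again below 46 and 3323 from 46 up, and 1649 in both with that sign. The sign was the same in both runs for 7116 (99.5%). The runs are parts of the 10 libraries that gave the calls, so this agreement in sign is largely built in and is no independent check.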

How the data were processed

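RNA of back skin was sequenced as poly-A libraries with paired 151-base reads on an Illumina NovaSeq, per the labels' protocols. The submitters' processing notes name STAR, HTSeq, DESeq2 and build mm10, with versions not given in the sources used here. The deposited values are a normalised signal, gene counts that the authors divided by a size factor per library, per the submitters' processing notes and the values themselves. In every library 100.0% of values were whole multiples of 1 read within a tolerance of 0.01, so whole reads were recovered, with size factors of 0.6735 to 1.7503. All libraries of the series had 18.49 to 37.76 M reads.

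From the deposited values, log2(value + 1) was fitted with limma 3.58.1 (trend, R 4.3.3) on 9 group means over 43 libraries. Genes that reached a value of 10 in 4 or more libraries were tested, and p-values were adjusted by Benjamini-Hochberg over 19170 genes with a threshold of 0.05. The difference in WT minus that in NZM or iNZM was tested as an interaction. The fit was tested on simulated data for the chronic against acute comparison over 19170 genes, of which 18970 were left unchanged. It called 44 of 50 genes raised 4-fold, 19 of 50 raised 2-fold, 32 of 50 lowered to 0.5 and 46 of 50 lowered to 0.25. Of the unchanged genes it called 8. The changed genes all averaged 50 or more. Far fewer genes were changed in the simulation than were called in the data (37.3%), so these rates do not give the sensitivity of the comparison itself. edgeR 4.0.16 and DESeq2 1.42.0 on recovered reads, other scalings, filters, pseudocounts and left-out libraries were alternatives. Python 3.11.15 drew the figures.

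Genes named in the text were up to 12 in each direction with the largest difference among called, non-overlapping genes whose higher group averaged 100 or more (without predicted models and antigen receptor or antibody segments), up to 4 with the smallest adjusted p in each list, up to 4 in each direction for each interaction, and 25 fixed by name. Genes said to be named after their values were seen, and Krt1 and Krt10, fall outside it, and some genes it selects are not reported here. The members and lists were chosen with earlier results of these data known. Gene positions are from GENCODE vM21.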

Additional observations from a re-analysis of the deposited data

Results flagged for a closer look

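In 43 of 504 sets of values (a gene in a WT group), the highest or lowest library stood far from the rest, where chance gives about 1 in 20 sets. Chronic library 59 was the low one for 5 epidermal genes, with 2726 for Ivl, 7446 for Casp14, 19203 for Asprv1, 2744 for Klk8 and 784 for Tmprss13, and also for Akr1d1 with 165 and for Ccl2 with 46. The other chronic libraries that stood apart were 58 for Csf3 (33.9), Osmr (742), Adamts9 (505) and Krt71 (146), 28 for RP24-291M22.2 (12), Saa3 (611), Ckm (10826) and RP24-180L12.6 (1083), 29 for Sprr3 (1.14) and Gsta1 (52.4), and 27 for Nqo1 (416).

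Acute library 50 stood apart for Akr1d1 (4.67), Sprr3 (2.34), Aen (3698), Nqo1 (2107), Cd207 (43.2) and Gsdmc (0). Acute library 52 did so for S100a8 (1219), Rora (2466), Icam1 (1769) and Ifi205 (2752), 13 for Padi4 (35.9) and Stard4 (933), and 15 for Thy1 (1259.9). Among unexposed libraries, 45 stood apart for Fgf23 (1.59), Lce3e (5.56), Krt6b (485), Stfa1 (1.59), Mmp10 (0.795) and RP24-180L12.6 (10.3), 44 for Saa2 (0.916), Chil3 (1.83) and Krt71 (4395), 43 for Ivl (1755) and Hlf (3074), and 41 for Socs3 (549). The values of Fgf23, Stfa1, Mmp10, Saa2 and Chil3 rest on very few reads.

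The difference between chronic and acute UVB was not the same in WT as in another strain, by the interaction test, for 12 genes named by rule. On the log2 scale it was more positive in WT than in NZM by 6.97 for Sprr2a3, 6.28 for Serpinb3a, 7.04 for Rptn and 6.25 for Gsdmc, and than in iNZM by 8.92 for Sprr2a3, 6.93 for RP23-127E21.1, 6.89 for Gsdmc and 6.98 for RP24-180L12.6. WT minus NZM was -4.14 for Rrad, -3.99 for RP24-291M22.2, -3.11 for RP24-210L3.2 and -4.49 for Krt90. WT minus iNZM was -4.30 for Rrad, -3.76 for Krt90, -3.68 for Krt24 and -3.35 for Gbp10.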

How the results depend on the processing

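The count of 7153 genes ranged from 6189 to 7088 when each library was left out, was 7098 by edgeR and 7772 by DESeq2, and was 4668 at an adjusted p below 0.01. It was 2939 with only the libraries numbered below 46 and 3780 with only those numbered from 46 up, alternatives chosen after seeing the data, as was the muscle score; both use fewer samples. TMM scaling moved the median of all genes to 0.00, against 0.03, and the share of higher calls stayed within 10 percentage points of the main one in all alternatives run of that comparison (52.6%, range 47.4% to 54.6%). The interaction count against NZM, 558, was 1028 by DESeq2, 156 at 0.01 and 2647 with sample quality weights (58.4% more positive in WT, against 69.9%), and ranged from 289 to 734 over left-out libraries. Against iNZM, 1132 was 1849 by DESeq2, 408 at 0.01 and 275 with only the groups compared in the fit (612 against NZM), and ranged from 684 to 1344 over left-out libraries. The causes of these interaction shifts were not tested.

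Of the called genes named here, only Slc2a4, Foxn1 and Padi4 changed sign under any alternative, all with the muscle score as covariate, at 0.02, -0.30 and -0.18. The other changes of sign were in genes that had not passed. Trdc was -0.36 by DESeq2, -0.38 by edgeR, -0.31 below 46, -0.11 with a pseudocount of 8, -0.17 with quantile normalization, -0.03 with the sample number as covariate and -0.01 with weights. Xpc was 0.06 below 46, 0.00 with quantile normalization, 0.01 with the sample number as covariate and 0.01 with weights. Adipoq was 0.69 below 46 and 0.11 with the muscle score, Col1a1 -0.14 from 46 up and -0.45 with the muscle score, H2-Ab1 -0.11 and Krt6a 0.21 from 46 up, and Ifit1 0.11 and S100a8 0.32 with the muscle score. Over left-out libraries the differences ranged from -0.70 to 0.41 for Trdc, -0.04 to 0.03 for Xpc, -0.37 to 0.21 for Adipoq, -0.04 to 0.56 for H2-Ab1 and -0.46 to 0.00 for Krt6a. Of 86 list counts, 41 moved by over 1.5 times with the muscle score, 12 by DESeq2, 8 by edgeR and 2 with TMM scaling. With only the libraries numbered below 46, 46 of the 86 counts moved, with only those from 46 up 32, and at an adjusted p below 0.01 25. No paired analysis was possible because the sample numbers in the labels are unique to each library. Genes near 0 in 1 group are limited by depth, since a value of 1 is about 1 read.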
